A study of Homo sapiens with 10 samples.

Results

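The 10 genes described here drive or gate the passage of a cell through G1. They are the D cyclins CCND1, CCND2 and CCND3 with their kinases CDK4 and CDK6, the E cyclins CCNE1 and CCNE2 with their kinase CDK2, and RB1 and E2F1, on which these kinases converge. They were taken by gene symbol and by no cutoff on a measured value. Earlier results of these data were known when the genes were chosen. All 10 had 1 probe set in each of the authors' 2 tables, which hold 18480 genes each and share 18229 probe sets.

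In G1, growth signals raise the D cyclins, which bind CDK4 or CDK6 and start to phosphorylate the retinoblastoma protein encoded by RB1. That protein holds E2F transcription factors in check, and phosphorylation releases them. E2F1 and its relatives then switch on the E cyclins, among other genes of DNA synthesis, and cyclin E with CDK2 phosphorylates the retinoblastoma protein further as S phase begins.

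The arrays were made from HEK-293, a human embryonic kidney cell line, transfected at 10 nM with a small interfering RNA (siRNA). The 10 arrays form 5 groups of 2 biological replicates: LINC00324 siRNA 1, LINC00324 siRNA 2, LOC400043 siRNA 1, LOC400043 siRNA 2, and a scramble siRNA as control. LINC00324 and LOC400043 are long noncoding RNAs (lncRNAs), and the series asked whether such RNAs act as sponges of microRNAs. All groups, scramble included, went through lipid transfection with RNAiMax, and the time from transfection to harvest is not given in the sources used here. As background, HEK-293 carries the adenoviral protein E1A, which binds the retinoblastoma protein, and this limits the line as a model of the G1 gate.

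Values are log2 levels from Affymetrix HuGene-1_0-st arrays, whose number, 2 per group, sets the precision. Each table holds the 4 siRNA arrays of 1 lncRNA and the 2 scramble arrays, and the tables were normalized separately. The same scramble arrays therefore stood higher in the LINC00324 table, by 0.03 to 0.40 (log2) over the 10 genes and most for CDK6. Each difference was taken within a table, and both tables rest on the same 2 control arrays. The values come from whole cultures, so fewer cells with a transcript and less of it per cell cannot be told apart. The LINC00324 probe set read 5.37 and 5.03 with its siRNA 1 and 5.24 and 5.60 with its siRNA 2, against 5.79 and 5.80 with scramble. The differences of -0.60 and -0.38 (log2) did not pass the test (adjusted p = 0.184 and 0.308 by limma). In the other table it read 5.42 to 5.47 with the LOC400043 siRNAs, against 5.58 and 5.76 with scramble. No probe set of LOC400043 was analysed here. All 10 embryonic kidney line genes checked, among them PAX2 and VIM, had a group mean of at least 6.64. Of 6 blood cell genes the lowest was PTPRC (3.62 to 3.96) and the highest SPI1 (6.91 to 7.26). Of 6 fibroblast genes the lowest was DCN (3.94 to 4.12) and the highest COL1A1 (7.94 to 8.21). In each of these 2 lists 4 or 5 of the 6 genes had a group mean of at least 5, so the lists overlapped in level. Of the 10 embryonic kidney line genes, 1 rose and 3 fell with LOC400043 siRNA 1 (differences down to -0.77, log2) and 2 rose and 2 fell with siRNA 2 (down to -1.31), by limma at an adjusted p under 0.05. With siRNA 2, 1 of 6 blood cell genes rose and 1 of 6 fibroblast genes fell. The shares of all genes called with these siRNAs were 11.5% and 21.7%, and the part of these markers in the results was not tested.

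Across the 4 siRNAs, the LOC400043 pair had the most of these genes called, and CCNE2 was the gene most often called higher. A gene counts as changed, or called, at an adjusted p under 0.05 (limma, Benjamini-Hochberg over all 18480 genes of a table). Over all genes, the SD of the difference between replicates was 0.244 and 0.129 with LINC00324 siRNAs 1 and 2. With LOC400043 siRNAs 1 and 2 it was 0.127 and 0.141. The part of this spread in the counts was not tested. With LOC400043 siRNA 1, 5 of the 10 genes changed (2 higher, 3 lower), where 11.5% of all genes did. With LOC400043 siRNA 2, 4 of 10 changed (1 higher, 3 lower), where 21.7% of all genes did. With LINC00324 siRNA 2, 1 of 10 rose, where 1.85% of all genes changed. With LINC00324 siRNA 1, limma called 0 of 10, where 0.498% of all genes changed. There 3 of 10 had an unadjusted p under 0.05, as did 2435 of all 18480 genes. An intensity trend in limma raised the count called from 0 to 2, and that over all genes from 92 to 931. The median log2 difference of the 10 genes was 0.09, -0.03, 0.09 and -0.07 with LINC00324 siRNA 1, LINC00324 siRNA 2, LOC400043 siRNA 1 and LOC400043 siRNA 2. Over all genes it was 0.02, 0.01, 0.03 and 0.01 in the same order.

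**Figure D1:**
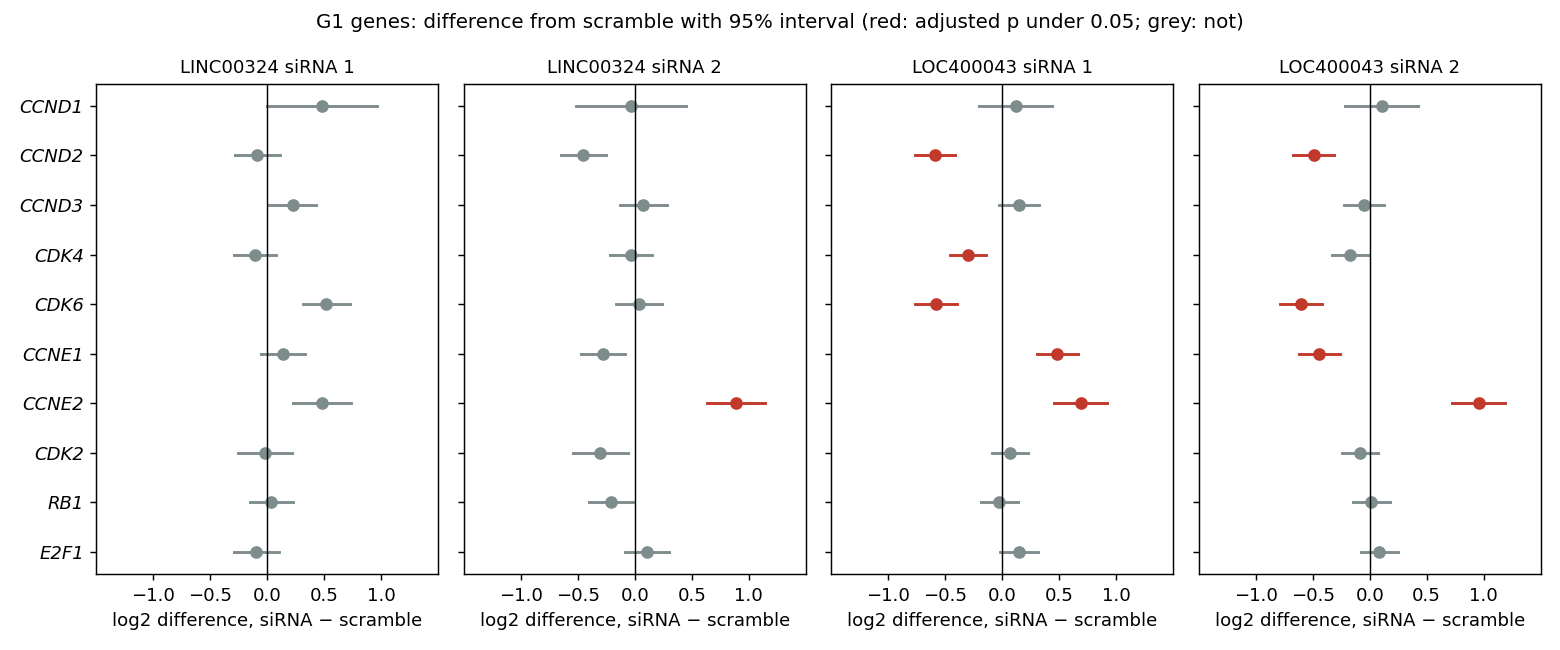
Differences from scramble for the 10 genes with each siRNA, as the log2 level with the siRNA minus that with scramble (points) and its 95% interval from limma (lines), with genes down the page; red marks an adjusted p under 0.05. CCNE2 lies to the right of 0 in all 4 panels, from 0.48 to 0.96, CDK6 and CCND2 lie to the left with both LOC400043 siRNAs, and CCNE1 changes side between the LOC400043 siRNAs.

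The D cyclins and their kinases split by gene. CCND2 and CDK6 fell with both LOC400043 siRNAs, by about 1.5-fold, and CDK4 fell with siRNA 1, while CCND1 and CCND3 passed the test with none of the 4 siRNAs. CCND2 encodes cyclin D2, and its probe set lies on chromosome 12 from 4382938 to 4414516 (coordinates as in the table, which names no genome build). It read 9.41 and 9.37 with LOC400043 siRNA 1 and 9.50 and 9.46 with siRNA 2, against 9.90 and 10.05 with scramble. Every siRNA array was lower than either control. The falls were 0.59 (log2, SE 0.07, adjusted p = 0.00567 by limma) and 0.49 (SE 0.07, adjusted p = 0.00515). Between the 2 siRNAs the difference was -0.10, with a 95% interval of -0.27 to 0.08 (adjusted p = 0.475). Without either array of LOC400043 siRNA 1 the call for that siRNA ended, with an adjusted p of 0.0503 or 0.0666 by limma.

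With the LINC00324 siRNAs, CCND2 read 9.94 and 10.07 with siRNA 1 and 9.64 on both arrays with siRNA 2, against 10.07 and 10.12 with scramble. Only the siRNA 2 arrays lay clear of scramble. That difference, -0.45 (SE 0.08), missed the threshold (adjusted p = 0.0554 by limma). It passed once dim genes, with a mean log2 value under 5, were left out (0.0481), and under some other settings, while the replicate block gave 0.0702. With siRNA 1 it was -0.09 (adjusted p = 0.697).

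CDK6 encodes a kinase partner of the D cyclins (chromosome 7, 92234235 to 92463222 in the table). It read 8.34 and 8.25 with LOC400043 siRNA 1 and 8.28 and 8.27 with siRNA 2, against 8.80 and 8.95 with scramble. The siRNA arrays of both groups again lay below both controls. The falls were 0.58 (SE 0.08, adjusted p = 0.00672 by limma) and 0.60 (SE 0.08, adjusted p = 0.00302), or 1.49-fold and 1.52-fold. The siRNAs of the pair differed by 0.02, with a 95% interval of -0.16 to 0.20. Without LOC400043 siRNA 1 replicate 2 the adjusted p for siRNA 1 was 0.0740.

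In the LINC00324 table CDK6 read 9.75 and 9.81 with siRNA 1 and 9.34 and 9.25 with siRNA 2, against 9.20 and 9.32 with scramble. With siRNA 1 both arrays stood above scramble, while with siRNA 2 they overlapped it. The siRNA 1 difference was 0.52 (SE 0.09, 95% interval 0.31 to 0.72), on the other side of 0 from both LOC400043 siRNAs, but it did not pass the test (adjusted p = 0.0722 by limma). It passed with an intensity trend (0.0020) and after a second quantile normalization (0.0241), but not with the replicate block (0.0983). The siRNA 2 difference was 0.04 (adjusted p = 0.904). CDK6 was the only 1 of the 10 genes called between the LINC00324 siRNAs, higher with siRNA 1 by 0.48 (SE 0.09, adjusted p = 0.0424), where 3.07% of all genes were called. That call ended with the replicate number as a block (adjusted p = 0.0565 by limma), with arrays centred on their medians (0.0592), and when any single array was left out (0.0589 to 0.394). These CDK6 differences are set side by side only, since the tables share their control arrays and no fit across them was made.

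CDK4, the other kinase of the D cyclins, fell less. It read 11.62 and 11.56 with LOC400043 siRNA 1 and 11.69 and 11.76 with siRNA 2, against 11.92 and 11.87 with scramble. Both siRNA groups lay below the controls, and the fall with siRNA 1 was 0.30 (SE 0.07, adjusted p = 0.0344 by limma). With siRNA 2 the difference was -0.17 (adjusted p = 0.127, or 0.0121 with an intensity trend in limma). The siRNAs differed by -0.13 (95% interval -0.29 to 0.03). The siRNA 1 call ended when any array of the table was left out (adjusted p 0.0634 to 0.217). With the LINC00324 siRNAs the differences of CDK4 were -0.11 and -0.03 (adjusted p = 0.605 and 0.908).

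CCND1, or cyclin D1, had the widest spread between replicates of the 10 genes. It read 8.20 and 7.71 with LINC00324 siRNA 1 and 7.35 and 7.53 with siRNA 2, against 7.68 and 7.26 with scramble. Its difference with LINC00324 siRNA 1, 0.48, is as large as that of CCNE2, but the SE was 0.20 and the 95% interval ran from -0.01 to 0.97 (adjusted p = 0.385 by limma). In the LOC400043 table the 4 siRNA arrays read 7.11 to 7.37, against 6.96 and 7.31 with scramble, and the groups overlapped. CCND3, or cyclin D3, differed from scramble by between -0.05 and 0.22 over the 4 siRNAs (adjusted p 0.246 to 0.779 by limma). It was highest with siRNA 1 of each pair, at 10.06 and 10.17 for LINC00324, against 9.95 and 9.83 with scramble, and at 9.92 and 9.83 for LOC400043, against 9.77 and 9.67 with scramble.

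**Figure D2:**
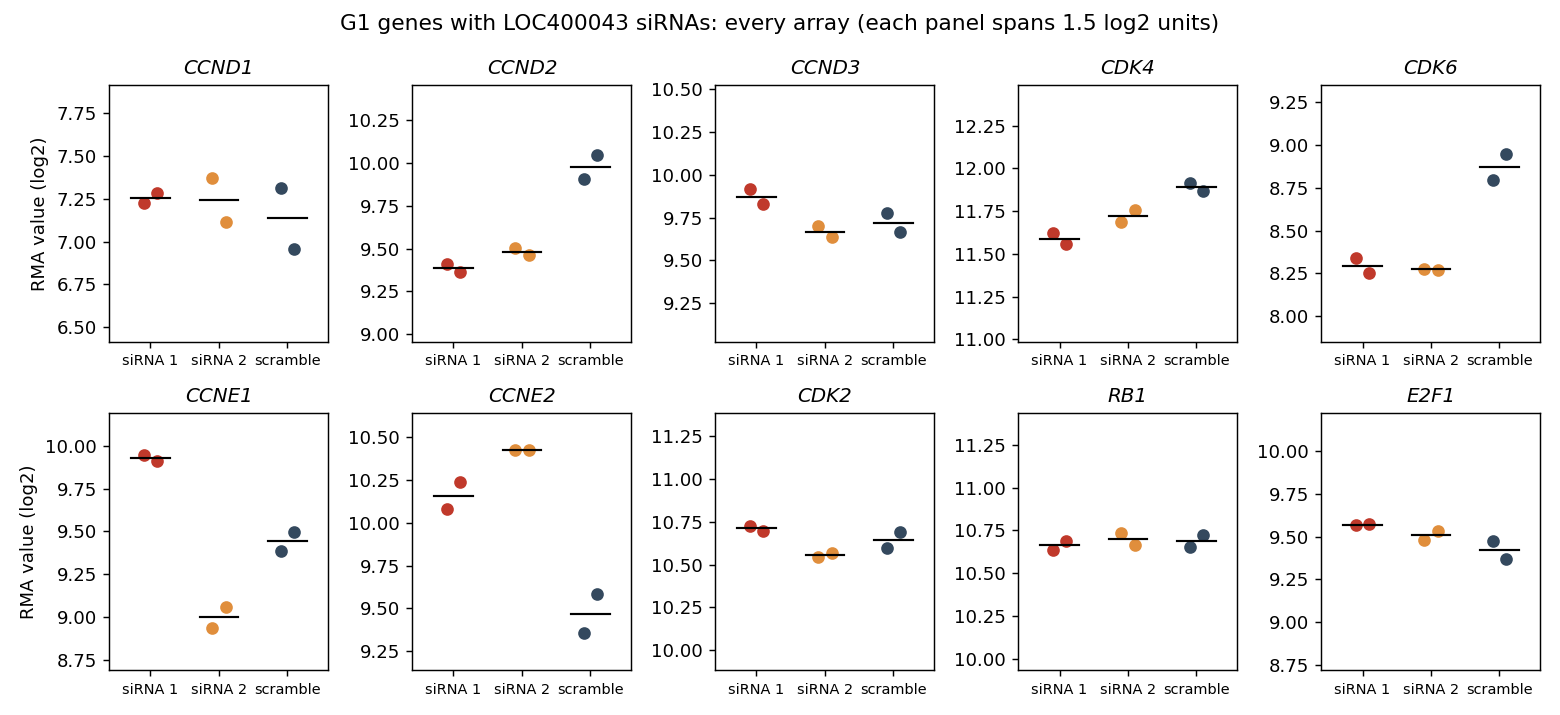
Level of the 10 genes on each array of the LOC400043 table (points) with the group mean (line), as log2 RMA values by group; each panel spans 1.5 log2 units. CCND2, CDK6 and CDK4 lie below scramble with both siRNAs, CCNE2 lies above it with both, and CCNE1 lies above it with siRNA 1 and below it with siRNA 2.

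The E cyclins, the targets of E2F that follow the D cyclins, did not move together. CCNE2 rose with 3 of the 4 siRNAs, by up to 1.94-fold, whereas CCNE1 rose with LOC400043 siRNA 1 and fell with LOC400043 siRNA 2. Their kinase gene CDK2 passed the test with none.

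CCNE2 encodes cyclin E2 (chromosome 8, 95892452 to 95907484 in the table). With LOC400043 siRNA 1 it read 10.08 and 10.24 and with siRNA 2 it read 10.43 on both arrays, against 9.35 and 9.59 with scramble. All 4 siRNA arrays stood above both controls. The rises were 0.69 (SE 0.10, adjusted p = 0.00804 by limma) and 0.96 (SE 0.10, adjusted p = 0.00149). They differed from each other by -0.27 (95% interval -0.50 to -0.04), short of the threshold (adjusted p = 0.117, or 0.0227 with an intensity trend in limma). Without LOC400043 siRNA 1 replicate 2 the adjusted p for siRNA 1 was 0.0774.

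With LINC00324 siRNA 1, CCNE2 read 9.98 and 10.00 and with siRNA 2 it read 10.35 and 10.45, against 9.38 and 9.64 with scramble. Here too the 4 siRNA arrays lay above both controls. The siRNA 2 rise was 0.89 (SE 0.11, adjusted p = 0.0234 by limma), or 1.85-fold. The siRNA 1 difference, 0.48 (SE 0.11, 95% interval 0.23 to 0.74), was not called (adjusted p = 0.137). The siRNAs differed by -0.41 (95% interval -0.66 to -0.15, adjusted p = 0.107). Both passed with an intensity trend in limma (0.00506 and 0.00796). In both tables the higher values were those of siRNA 2. The siRNA 2 call ended without either scramble array or either siRNA 2 array, as did every call of that comparison over all genes. The CCNE2 difference stayed between 0.76 and 1.01 (log2) under all 11 other settings.

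CCNE1 encodes cyclin E1 (chromosome 19, 30302901 to 30315219 in the table). It read 9.94 and 9.91 with LOC400043 siRNA 1 and 8.94 and 9.06 with siRNA 2, against 9.39 and 9.50 with scramble. No array of any of the 3 groups fell within the range of another group. The rise with siRNA 1 was 0.48 (SE 0.08, adjusted p = 0.0113 by limma). The fall with siRNA 2 was 0.44 (SE 0.08, adjusted p = 0.00802). The difference between the siRNAs, 0.93 (SE 0.08, adjusted p = 0.000962 by limma), or 1.90-fold, was the only 1 of the 10 genes to pass, where 17.1% of all genes did. It passed under all 11 other settings tried, leaving out any array included (adjusted p 1.3e-06 to 0.0164). The siRNA 1 call against scramble ended without either array of siRNA 1 (adjusted p = 0.0945 and 0.0888), and the siRNA 2 call ended without siRNA 2 replicate 1 (0.0614).

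In the LINC00324 table CCNE1 read 9.69 and 9.77 with siRNA 1 and 9.33 and 9.30 with siRNA 2, against 9.55 and 9.63 with scramble. Again siRNA 1 lay above the controls and siRNA 2 below. Neither difference was called (0.14 and -0.28, adjusted p = 0.523 and 0.154 by limma), and that between the siRNAs, 0.42 (SE 0.08), stood just short of the threshold (adjusted p = 0.0502). With an intensity trend limma called the siRNA 2 fall (0.0384) and the difference between the siRNAs (0.0035).

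CDK2, the kinase that cyclin E activates, read 10.60 and 10.81 with LINC00324 siRNA 1 and 10.40 and 10.44 with siRNA 2, against 10.67 and 10.78 with scramble. Its siRNA 2 arrays lay below the others, by 0.30 relative to scramble (95% interval -0.54 to -0.06 for the difference, adjusted p = 0.202 by limma). That difference passed with an intensity trend (0.0206). With the LOC400043 siRNAs the differences were 0.07 and -0.09 (adjusted p = 0.549 and 0.419).

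**Figure D3:**
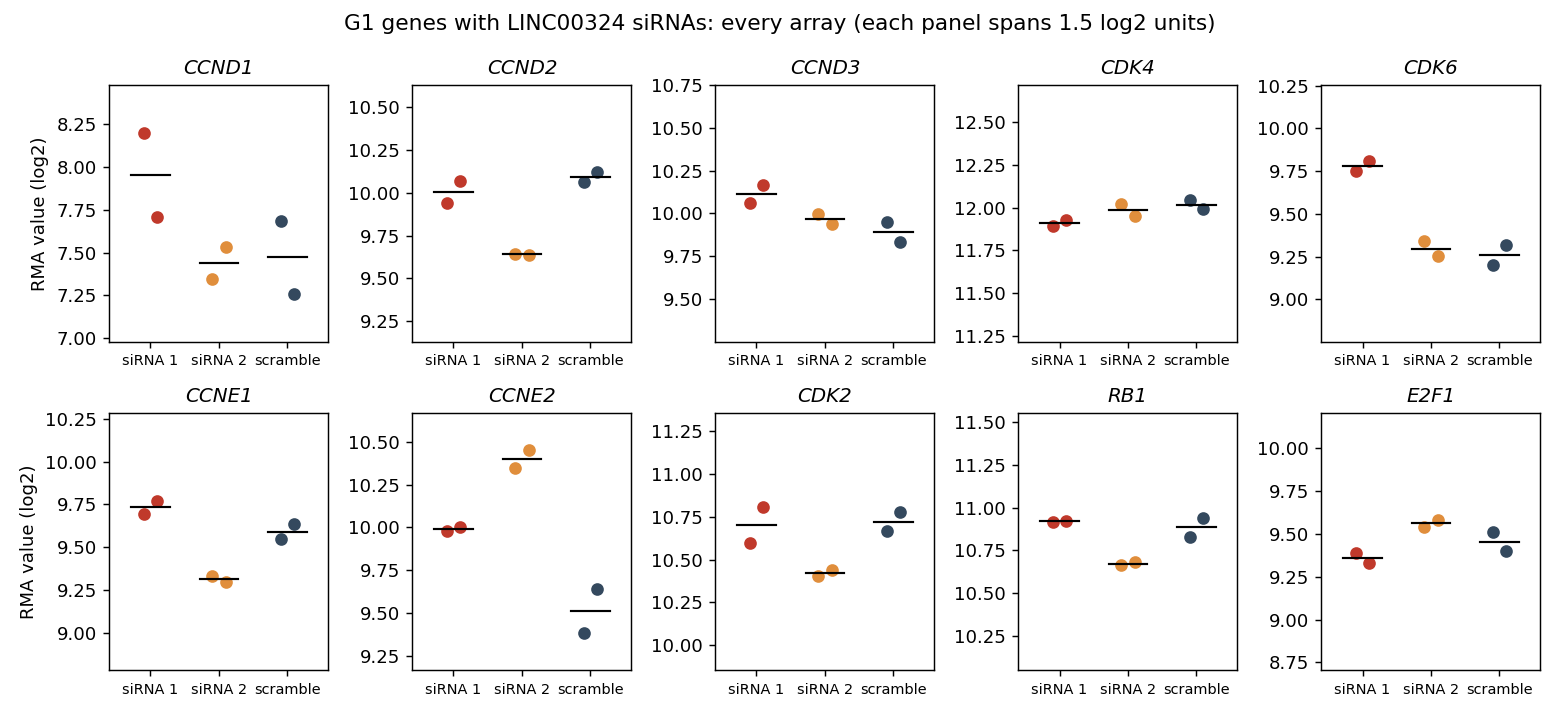
Level of the 10 genes on each array of the LINC00324 table (points) with the group mean (line), as log2 RMA values by group; each panel spans 1.5 log2 units. CCNE2 lies above scramble with both siRNAs, CDK6 lies above it with siRNA 1 alone, CCND2 and CDK2 are lowest with siRNA 2, and the CCND1 replicates stand far apart.

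RB1 and E2F1, the gate and the factor behind it, passed the test with none of the 4 siRNAs. RB1 differed from scramble by between -0.21 and 0.04 over the 4 siRNAs (adjusted p 0.262 to 0.921 by limma). Its largest difference was with LINC00324 siRNA 2, at 10.66 and 10.68, against 10.83 and 10.94 with scramble (95% interval of the difference -0.40 to -0.02), and an intensity trend in limma called it (adjusted p = 0.0338). With the LOC400043 siRNAs RB1 read 10.63 to 10.74, against 10.65 and 10.72 with scramble, and the groups overlapped. E2F1 differed by between -0.10 and 0.15 (adjusted p 0.231 to 0.665), and the 95% intervals over the 4 siRNAs reached from -0.29 to 0.31. Its arrays lay below both controls with LINC00324 siRNA 1 and above both with the other siRNAs. Phosphorylation of the retinoblastoma protein is not measured by these arrays.

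Counting arrays instead of tests, both siRNA arrays lay outside the range of both scramble arrays for 7 of the 10 genes with LINC00324 siRNA 1, where 39.1% of all genes did so. The count was 6 with LINC00324 siRNA 2, where 49.7% of all genes did, 8 with LOC400043 siRNA 1 (54.9%) and 7 with LOC400043 siRNA 2 (56.9%). With 2 arrays against 2, such separation was thus common across the arrays.

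CCNE1 and CDK6 are shown because they differed between siRNAs of a pair, and E2F1 because its window holds E2F motifs. RefSeq promoters of 6 of the 10 genes were searched: CCND3, CDK4, CDK6, CCNE1, RB1 and E2F1. Each window ran from 250 bases before to 50 after a gene's start (GRCh38.p14, 5′ to 3′). Promoters of CCND1, CCND2, CDK2 and CCNE2 were not searched, so whether they hold E2F motifs was not tested. The first 2 sequences have GC boxes in capitals (GGGCGG or its reverse complement, both strands), and the third has E2F motifs in capitals (TTTCCCGC, TTTCGCGC, TTTGCCGC or TTTGGCGC, both strands), with its GC boxes left in lower case.
CCNE1, chr19:29811741-29812040, plus strand: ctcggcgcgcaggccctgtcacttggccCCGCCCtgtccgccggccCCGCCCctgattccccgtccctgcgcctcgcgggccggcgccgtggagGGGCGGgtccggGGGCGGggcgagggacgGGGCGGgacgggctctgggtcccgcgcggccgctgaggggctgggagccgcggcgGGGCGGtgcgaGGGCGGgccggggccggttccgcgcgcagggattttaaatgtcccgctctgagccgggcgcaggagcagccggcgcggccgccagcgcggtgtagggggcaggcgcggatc
CDK6, chr7:92836524-92836823, minus strand, the first of 2 starts: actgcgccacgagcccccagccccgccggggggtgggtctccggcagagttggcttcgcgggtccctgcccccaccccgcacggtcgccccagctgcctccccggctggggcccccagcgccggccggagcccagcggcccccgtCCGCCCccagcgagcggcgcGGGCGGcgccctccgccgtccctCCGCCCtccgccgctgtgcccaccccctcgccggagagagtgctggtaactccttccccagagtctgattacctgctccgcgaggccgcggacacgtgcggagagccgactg
E2F1, chr20:33686336-33686635, minus strand: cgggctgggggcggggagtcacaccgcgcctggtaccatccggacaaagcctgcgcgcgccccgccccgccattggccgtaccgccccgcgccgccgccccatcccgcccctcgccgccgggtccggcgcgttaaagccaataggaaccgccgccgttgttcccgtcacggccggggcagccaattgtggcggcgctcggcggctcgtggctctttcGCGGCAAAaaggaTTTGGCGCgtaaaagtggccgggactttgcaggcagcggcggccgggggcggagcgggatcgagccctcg

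E2F1, whose protein is known to act on its own promoter, was the only 1 of the 6 genes with an E2F motif in this window. It had 2 matches, starting 33 and 20 bases before the start site, and neither overlapped a GC box. Of all 35116 promoters in the table, 3.31% held such a motif. The CCNE1 window held 7 GC boxes, the first CDK6 window 3 and the second CDK6 window, not shown, 0. Of the 6 genes, 5 had a GC box in at least 1 window, and 45.0% of all promoters held at least 1. The matches describe these letters only.

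The inhibitors of these kinases changed in single members. Of 7 CDK inhibitor genes, 1 fell with LINC00324 siRNA 1, and 1 rose and 1 fell with each LOC400043 siRNA. Over all genes 0.498% were called with LINC00324 siRNA 1, 11.5% with LOC400043 siRNA 1 and 21.7% with LOC400043 siRNA 2. With LINC00324 siRNA 2 limma called 0, where 1.85% of all genes were called. There 2 had an unadjusted p under 0.05, as did 2936 of all 18480 genes. CDKN1B encodes p27, which binds cyclin E with CDK2. It read 9.10 and 9.19 with LOC400043 siRNA 1 and 9.37 and 9.43 with siRNA 2, against 8.86 and 8.85 with scramble. Both siRNA groups lay above the controls, with rises of 0.29 (SE 0.07, adjusted p = 0.0406 by limma) and 0.55 (SE 0.07, adjusted p = 0.00269). CDKN1A encodes p21, a target of p53. It fell by 0.67 (SE 0.08, adjusted p = 0.0346) with LINC00324 siRNA 1, at 8.48 and 8.41, against 9.15 and 9.08 with scramble. It also fell by 0.42 (SE 0.07, adjusted p = 0.00821) with LOC400043 siRNA 2. CDKN2A, the gene of the CDK4 and CDK6 inhibitor p16, fell by 0.27 (SE 0.06, adjusted p = 0.0393) with LOC400043 siRNA 1. The CDKN1A call with LINC00324 siRNA 1 and the CDKN1B and CDKN2A calls with LOC400043 siRNA 1 each ended when any single array of the table was left out. Leaving out a scramble or LINC00324 siRNA 2 array ended every LINC00324 siRNA 1 call over all genes. The CDKN1A call with LOC400043 siRNA 2 ended without siRNA 2 replicate 2. The median of the 7 inhibitors was 0.01, 0.08, 0.13 and 0.03 (log2) with LINC00324 siRNA 1, LINC00324 siRNA 2, LOC400043 siRNA 1 and LOC400043 siRNA 2.

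Some relatives of RB1 and E2F1 passed the test with the LOC400043 siRNAs. Of 10 measured genes of pocket proteins, E2F factors and their DP partners, 2 rose and 1 fell with siRNA 1, and 3 rose and 1 fell with siRNA 2, where 11.5% and 21.7% of all genes were called. With the LINC00324 siRNAs limma called 0, and 0 with siRNA 1 and 3 with siRNA 2 had an unadjusted p under 0.05. Of all 18480 genes 2435 and 2936 had such an unadjusted p with these siRNAs. RBL1 encodes p107, a relative of the retinoblastoma protein. It read 10.25 and 10.23 with LOC400043 siRNA 1 and 10.25 and 10.34 with siRNA 2, against 9.75 and 9.78 with scramble. The rises were 0.48 (SE 0.07, adjusted p = 0.00745 by limma) and 0.53 (SE 0.07, adjusted p = 0.00267). E2F5, a factor that works with pocket proteins as a repressor, fell by 0.34 (SE 0.08, adjusted p = 0.0459) and 0.56 (SE 0.08, adjusted p = 0.00508). E2F7, a repressor of E2F target genes, rose by 0.43 (SE 0.07, adjusted p = 0.0108) with siRNA 1 and stood at -0.09 (adjusted p = 0.420) with siRNA 2. The siRNA 1 calls of RBL1, E2F7 and E2F5 ended without either siRNA 1 array (adjusted p up to 0.0741, 0.0978 and 0.242 by limma). That of E2F5 also ended without scramble replicate 2, without either siRNA 2 array, and with median centring.

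Among 14 measured genes that activate or break down G1 cyclins and kinases, 1 fell with LOC400043 siRNA 1, and 1 rose and 3 fell with siRNA 2, where 11.5% and 21.7% of all genes were called. FBXO4, an F-box protein gene linked to turnover of cyclin D1, read 7.21 and 7.22 with siRNA 1 and 6.98 and 7.18 with siRNA 2, against 7.67 and 8.03 with scramble. It fell by 0.63 (SE 0.13, adjusted p = 0.0249 by limma) and 0.77 (SE 0.13, adjusted p = 0.00732). SKP2, whose protein marks p27 for breakdown, was called lower with siRNA 2 alone, by 0.38 (SE 0.06, adjusted p = 0.00706), and the siRNAs differed by 0.28 (adjusted p = 0.0274). CKS1B, a partner of SKP2, fell by 0.62 (SE 0.06, adjusted p = 0.00155) with siRNA 2. Its probe set in that table lies on chromosome 5, while the CKS1B probe set of the LINC00324 table lies on chromosome 1, so its value may come from a near-identical copy and is uncertain. The FBXO4 call with siRNA 1 ended without scramble replicate 2 or either siRNA 1 array (adjusted p up to 0.137 by limma), and that with siRNA 2 ended without siRNA 2 replicate 1 (0.0562). The SKP2 call ended without siRNA 2 replicate 2 (0.0526). With the LINC00324 siRNAs limma called 0 of the 14, and 4 with siRNA 1 and 5 with siRNA 2 had an unadjusted p under 0.05. Of all 18480 genes 2435 and 2936 had such an unadjusted p with these siRNAs.

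Of 23 measured S phase targets of E2F, 2 rose and 5 fell with LOC400043 siRNA 1, and 4 rose and 4 fell with siRNA 2, where 11.5% and 21.7% of all genes were called. With the LINC00324 siRNAs 1 fell with siRNA 1 and 1 rose with siRNA 2, where 0.498% and 1.85% of all genes were called. MCM7, a subunit of the replicative helicase, read 11.56 and 11.47 with LOC400043 siRNA 1 and 11.50 and 11.56 with siRNA 2, against 11.12 and 11.10 with scramble. It rose by 0.40 (SE 0.07, adjusted p = 0.0145 by limma) and 0.42 (SE 0.07, adjusted p = 0.00652), and by 0.61 (SE 0.07, adjusted p = 0.0234) with LINC00324 siRNA 2. CHEK1, the replication checkpoint kinase gene, rose by 0.48 (SE 0.08, adjusted p = 0.0137) and 0.65 (SE 0.08, adjusted p = 0.00266) with the LOC400043 siRNAs. MYBL2, a transcription factor gene of cycling cells, fell by 0.29 (SE 0.06, adjusted p = 0.0306) and 0.55 (SE 0.06, adjusted p = 0.0019). TYMS, which makes thymidylate, fell by 0.70 (SE 0.08, adjusted p = 0.0337) with LINC00324 siRNA 1 and by 0.28 (SE 0.07, adjusted p = 0.0333) with LOC400043 siRNA 2. The LINC00324 calls of TYMS and MCM7 ended without either scramble array or either LINC00324 siRNA 2 array, as did every call of those comparisons over all genes. That of TYMS also ended without LINC00324 siRNA 1 replicate 1. The LOC400043 siRNA 1 calls of MCM7 and CHEK1 ended without either siRNA 1 array, and the siRNA 2 call of MCM7 ended without siRNA 2 replicate 2. The MYBL2 call with LOC400043 siRNA 1 and the TYMS call with LOC400043 siRNA 2 ended when any array was left out. That TYMS call also ended with median centring. The list median lay between -0.08 and 0.11 (log2) over the 4 siRNAs, and members moved both ways.

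**Figure D4:**
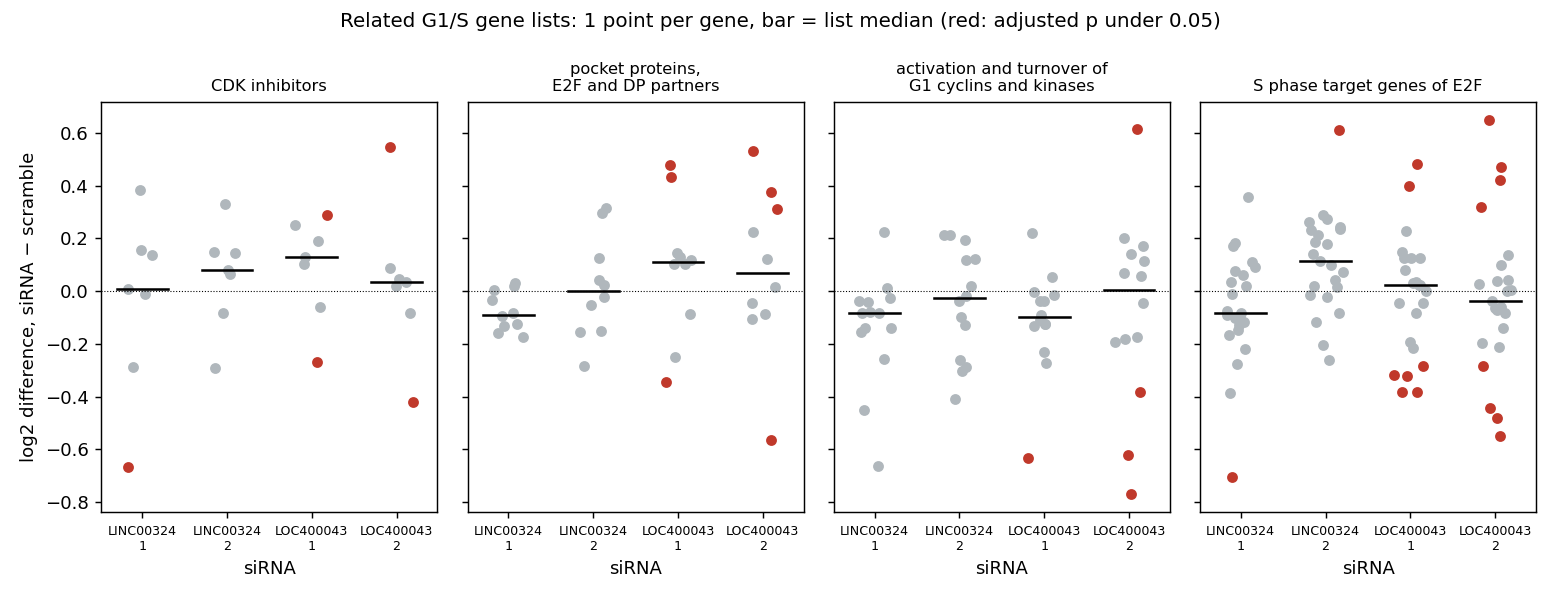
Differences from scramble for 4 lists of genes around the G1 gate, with 1 point per measured gene, as log2 level with the siRNA (x axis) minus that with scramble; bars are list medians and red marks an adjusted p under 0.05 (limma). List medians stay between -0.10 and 0.13, and most red points lie in the LOC400043 columns.

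CCNE2 had the widest range of group means of the 10 genes in both tables, 0.89 (log2) for LINC00324 and 0.96 for LOC400043. The named genes most like it over the 6 arrays of the LINC00324 table were XPOT (Pearson r = 0.995), MLH3 (r = 0.991) and SLC1A5 (r = 0.990). In the LOC400043 table they were STAU1 (r = 0.998), PPP1CB (r = 0.997) and CHEK1 (r = 0.996). These r values describe 6 arrays in 3 groups, picked as the highest of the table, and the 2 tables named no gene in common.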

How the data were processed

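The authors deposited 2 tables of log2 values made with RMA, and named limma for their comparisons, per the submitters' processing notes. The tables also hold the authors' log2 difference and unadjusted p-value for both siRNAs together, which were not used for results. Neither tool versions nor the genome build or annotation were stated in the sources used here. A value table of all 10 arrays repeats the LINC00324 table for scramble and LINC00324 arrays and the LOC400043 table for the rest, so its columns are not on 1 scale and a joint fit of 10 arrays was not made.

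Each table was fitted alone in R 4.3.3 using limma 3.58.1 (linear models with empirical Bayes, two-sided; groups scramble, siRNA 1, siRNA 2; 3 residual degrees of freedom). P-values were adjusted by Benjamini-Hochberg over the 18480 genes of each comparison, unfiltered. Gene names came from accessions through RefSeq (GRCh38.p14), for 17316 genes of the LINC00324 table, and otherwise from symbols. The fit was also run on simulated data with independent normal noise of the spread that limma estimated. That cannot show whether calls from 2 arrays per group hold here. Whether replicate numbers pair the arrays is not settled, and the main fit leaves them out. Deviations of same-numbered arrays correlated between -0.38 and 0.60, and between 0.09 and 0.37 within the LOC400043 table. A replicate block raised the LOC400043 calls against scramble over all genes (2128 to 2822 and 4016 to 4814). It lowered the LINC00324 ones (92 to 82 and 341 to 301). The members and gene lists were chosen with earlier results of these data known. Named genes are all 10 members, the called CDK inhibitors and, of each other list, the 2 called genes with the smallest p per siRNA. Of the 57 listed genes 54 were measured in both tables. Sequences are from RefSeq. Alternatives were a replicate block, a dim-gene filter, an intensity trend, median centring, a second quantile normalization and leaving out each array.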

Additional observations from a re-analysis of the deposited data

Results flagged for a closer look

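The siRNAs of a pair are meant to silence the same RNA, and 2 genes differed between them by the test of that difference. CCNE1 was higher with LOC400043 siRNA 1 than with LOC400043 siRNA 2 by 0.93 (log2, SE 0.08, adjusted p = 0.000962 by limma), at 9.94 and 9.91 with siRNA 1, against 8.94 and 9.06 with siRNA 2. Of all genes 17.1% passed that test, and the CCNE1 call held under all 11 other settings. CDK6 was higher with LINC00324 siRNA 1 than with LINC00324 siRNA 2 by 0.48 (SE 0.09, adjusted p = 0.0424 by limma), at 9.75 and 9.81 with siRNA 1, against 9.34 and 9.25 with siRNA 2. Of all genes 3.07% passed that test, and the CDK6 call ended in 8 of 11 other settings, among them the replicate block (0.0565), median centring (0.0592) and each array left out (0.0589 to 0.394).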

How the results depend on the processing

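Groups of 2 arrays were too small for a check of single arrays that stand apart. Among the 660 values of single genes under other settings, 583 kept their sign and status, 25 lost a call and 23 gained one. Another 29, not called, changed sign. No called change reversed, though the settings reuse the same arrays. The LOC400043 counts against scramble (5 for siRNA 1, 4 for siRNA 2) stayed within 1.5 times under every setting that kept all arrays. Leaving out 1 array leaves 1 array in its group, and calls over all genes then moved as well. Counts from those fits are therefore not compared, and the calls that ended are named with each gene. All LOC400043 siRNA 1 calls of the 10 genes ended without siRNA 1 replicate 2, where calls over all genes also fell. The count between the LOC400043 siRNAs stayed at 1, except for 4 with an intensity trend, where 23.3% of all genes were called, against 17.1% in the main fit. The LINC00324 counts depended on the setting. For siRNA 1 the count was 0, where 0.498% of all genes were called. It was 2 with an intensity trend (5.04% of all genes) and 1 after a second quantile normalization (1.84%). For siRNA 2 it was 1, where 1.85% of all genes were called. It was 2 without dim genes (2.63% of all genes), 5 with an intensity trend (8.12%) and 2 after a second quantile normalization (4.23%). The main call, that of CCNE2, ended without either scramble or either siRNA 2 array, as did every call of that comparison over all genes. Between the LINC00324 siRNAs it was 1, where 3.07% of all genes were called. It was 0 with a replicate block (2.52% of all genes) and with median centring (2.68%). It was 2 without dim genes (4.01%), 6 with an intensity trend (10.1%) and 3 after a second quantile normalization (6.22%). The main call, that of CDK6, ended when any array was left out. The cause was not tested; over all genes the trend raised calls with LINC00324 siRNA 1 to 931, against 92. The replicate block changed no other count of the 10 genes. Of 23 calls of named genes in the related lists, 6 held under all 11 settings and 17 ended in at least 1, a comparison added after the data were seen. The planned fit of all 10 arrays was not run, since the value table is not on 1 scale.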
